A study of Mus musculus with 4 samples.

Results

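The 34 genes described here encode the chaperones, disulfide isomerases, degradation factors and stress sensors of the endoplasmic reticulum, and they were taken by gene symbol from a list of such genes. Of these, 33 had a probe set that the platform annotation pairs with 1 gene, out of 22180 genes so measured, and all 33 passed the level filter that kept 13308 genes. Pdia4, a protein disulfide isomerase, was left out because its probe set is also assigned to a microRNA. By role, 4 members are stress sensors or their transcription factor, 18 of the 19 folding members were used, 9 act in degradation and 2 in translocation. The cells were mouse bone marrow-derived macrophages, grown from the marrow of animals 8 to 12 weeks old in medium with 15% L929-conditioned medium, a source of the macrophage growth factor CSF1. Wild type (WT) means Hilpdaflox/flox mice with the floxed gene intact, and knockout (KO) means their HilpdaΔMΦ littermates, in which Hilpda, a lipid droplet protein that inhibits adipose triglyceride lipase, is deleted in macrophages. The sources used here do not name the Cre driver. Both genotypes received 600 µM fatty acids bound to albumin, with 1 part palmitate to 2 parts oleate, for 12 h or for 24 h. Each of the 4 groups was 1 array, hybridised with RNA pooled from 3 samples (whether of separate animals is not stated), so no value has a replicate error and no difference between 2 arrays was tested. No group without fatty acids was analysed here, so time with fatty acids and time in culture cannot be told apart.

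Proteins that enter the secretory pathway fold in the endoplasmic reticulum with the help of the HSP70-type chaperone BiP, lectin chaperones and disulfide isomerases, and those that fail are returned to the cytosol and degraded by the proteasome. When unfolded proteins accumulate, the sensors IRE1, PERK and ATF6 start the unfolded protein response, in which XBP1, ATF4 and cleaved ATF6 induce genes of folding and degradation. Saturated fatty acids such as palmitate are known activators of these sensors in macrophages, and oleate is known to temper that effect. An array reads the transcript level of a gene, and so does not show the splicing of Xbp1 RNA, the cleavage of ATF6 or the phosphorylation of PERK.

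Many promoters of this group carry the endoplasmic reticulum stress element (ERSE), which ATF6 and XBP1 bind with the factor NF-Y. Promoters from RefSeq (build GRCm38.p6), each running from 250 bases before to 50 bases after a transcription start, were listed for 30 of the 34 genes, with 33 promoters among them; Atf6, Hyou1, Manf and Derl1 were not listed. ERSE was searched on both strands as CCAAT, then 9 bases of any kind, then CCACG. It was found in 9 of the 33 member promoters, or 27.3%, and in 39 of all 32851 promoters, or 0.119%. The element was described in chaperone genes of this kind, so its frequency among them is not an independent observation. The matches are shown because they mark the members with a known stress element, each read 5′ to 3′ on the strand that carries CCAAT, with the letters of the motif in capitals.
Hspa5 (chr2:34772025-34772043, plus strand): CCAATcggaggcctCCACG
Hsp90b1 (chr10:86705638-86705656, minus strand): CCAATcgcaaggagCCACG
Hsp90b1 (chr10:86705533-86705551, plus strand): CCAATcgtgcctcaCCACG
Calr (chr8:84847075-84847093, plus strand): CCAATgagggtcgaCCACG
Canx (chr11:50325800-50325818, minus strand): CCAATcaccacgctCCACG
Dnajc3 (chr14:118937827-118937845, plus strand): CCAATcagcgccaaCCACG
Pdia6 (chr12:17266491-17266509, plus strand): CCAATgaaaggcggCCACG
Creld2 (chr15:88819520-88819538, minus strand): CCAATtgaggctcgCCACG
Syvn1 (chr19:6046532-6046550, plus strand): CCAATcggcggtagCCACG
Derl3 (chr10:75893242-75893260, minus strand): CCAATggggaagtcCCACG
Of these 9 genes, 7 are folding members, and Syvn1 and Derl3 act in degradation. ERSE-II, searched on both strands as ATTGG, then 1 base of any kind, then CCACG, was found in 2 member promoters and in 12 of all promoters, or 0.0365%, and none of its matches in the members overlapped an ERSE match.
Herpud1 (chr8:94386377-94386387, plus strand): ATTGGgCCACG
Dnajb11 (chr16:22857852-22857862, plus strand): ATTGGcCCACG
The core of the unfolded protein response element, searched likewise as TGACGTGG, was found in 1 of the members' promoters, that of Txndc5, and in 0.676% of all promoters. TGATGCAA, a composite site for C/EBP and ATF factors including ATF4, was found only in the promoter of Herpud1 among the member promoters and in 0.895% of all promoters. A match describes letters in this window and does not show that a factor binds there.

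Whole promoters are printed for Hspa5, which encodes BiP, for Calr, the member with the highest mean level, for Pdia6, the folding member with the largest difference between the times in wild type, and for Herpud1, the member that was highest at 24 h relative to 12 h. Each is given 5′ to 3′ on the strand of the gene, with the matched letters of the motifs in capitals.
Hspa5 (chr2:34771840-34772139, plus strand): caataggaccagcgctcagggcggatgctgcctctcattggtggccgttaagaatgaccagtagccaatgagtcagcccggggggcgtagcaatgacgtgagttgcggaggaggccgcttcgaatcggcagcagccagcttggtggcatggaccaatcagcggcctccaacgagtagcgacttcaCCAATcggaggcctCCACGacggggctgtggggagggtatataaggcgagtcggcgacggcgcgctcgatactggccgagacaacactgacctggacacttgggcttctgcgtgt
Calr (chr8:84846882-84847181, minus strand): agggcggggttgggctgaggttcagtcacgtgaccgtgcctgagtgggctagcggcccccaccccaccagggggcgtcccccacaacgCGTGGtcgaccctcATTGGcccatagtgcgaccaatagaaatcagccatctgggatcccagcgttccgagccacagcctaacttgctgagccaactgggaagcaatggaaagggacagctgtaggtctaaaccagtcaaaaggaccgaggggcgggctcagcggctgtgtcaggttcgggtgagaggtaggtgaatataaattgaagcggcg
Pdia6 (chr12:17266339-17266638, plus strand): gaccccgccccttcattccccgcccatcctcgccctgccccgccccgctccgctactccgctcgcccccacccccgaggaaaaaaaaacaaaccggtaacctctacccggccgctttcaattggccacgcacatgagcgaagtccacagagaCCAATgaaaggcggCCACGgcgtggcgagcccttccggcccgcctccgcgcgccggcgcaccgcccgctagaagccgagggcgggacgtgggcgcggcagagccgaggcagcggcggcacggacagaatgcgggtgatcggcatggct
Herpud1 (chr8:94386179-94386478, plus strand): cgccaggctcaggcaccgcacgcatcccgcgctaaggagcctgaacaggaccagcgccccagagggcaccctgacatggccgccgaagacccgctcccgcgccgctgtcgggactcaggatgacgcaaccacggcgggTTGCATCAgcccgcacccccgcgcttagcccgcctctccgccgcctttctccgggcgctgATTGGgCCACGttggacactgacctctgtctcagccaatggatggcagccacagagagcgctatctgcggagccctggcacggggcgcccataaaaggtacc
In the Calr promoter the capitals spell ERSE on the opposite strand, and in the Herpud1 promoter the first run of capitals is the composite site on the opposite strand and the later ones are ERSE-II. Herpud1 was the member whose promoter held 2 different kinds of the motifs searched.

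Any pair of arrays had a Pearson correlation between 0.984 and 0.988 over the 41345 probe sets, which are not independent replicates. Hilpda had log2 levels of 5.93 in WT and 5.41 in KO at 12 h, and of 5.47 and 5.27 at 24 h, lower in KO at both times; the deleted part of Hilpda is unknown here, which limits what this says about the labels. The 9 macrophage markers were all past the level filter, with Lyz2 between 12.4 and 12.8 and Adgre1 between 11.3 and 11.8. Between the times in wild type 8 of the 9 were above 0 (median 0.26), and between the genotypes at 24 h 7 of the 9 were below 0 (median -0.26), with Itgam past 1.5-fold at -0.72. In knockout between the times, and between the genotypes at 12 h, their medians were both 0.02. Markers of stromal cells, which marrow cultures can hold, were mostly lower in KO and higher at 24 h. The 7 past the filter were all below 0 between the genotypes at both times, with medians of -0.56 and -0.82. Between the times, 6 of these 7 were above 0 in each genotype. Lum and Thy1 were not past the filter, and Thy1 was lower at 24 h in both genotypes. The 9 stromal probe sets summed to log2 levels of 9.25 (WT 12 h), 8.73 (KO 12 h), 10.1 (WT 24 h) and 9.27 (KO 24 h), a sum that weights the brightest most. Col1a1 was at 8.07, 7.49, 8.87 and 8.00 in the same order. None of the 8 neutrophil markers, 2 of 6 T cell, 4 of 6 dendritic cell and 3 of 8 B and plasma cell markers were past the filter, and Cd3e, Flt3, Cd79a, Mzb1 and Jchain were among those below it. Sdc1, also a gene of plasma cells, was the brightest of the lymphoid markers, at 6.48 to 7.14. In such a bulk measurement, fewer cells of a type and less RNA per cell cannot be told apart.

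Most members had a mean level above the median of all genes kept. Their mean log2 levels over the 4 arrays ran up to 11.4 for Calr, the calcium-binding lectin chaperone calreticulin, against a median of 5.74 over all genes kept. Folding members had a median level of 8.65 and degradation members of 8.09. Only Derl3, Manf and Sec61b had mean levels under 4, near the level filter of 2.44, and the next lowest was Pdia5 at 4.51. The plot of levels by array shows that the 4 arrays lie close together for each gene compared with the spread between genes, which on an array also depends on the probes and is no measure of molar abundance.

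**Figure D1:**
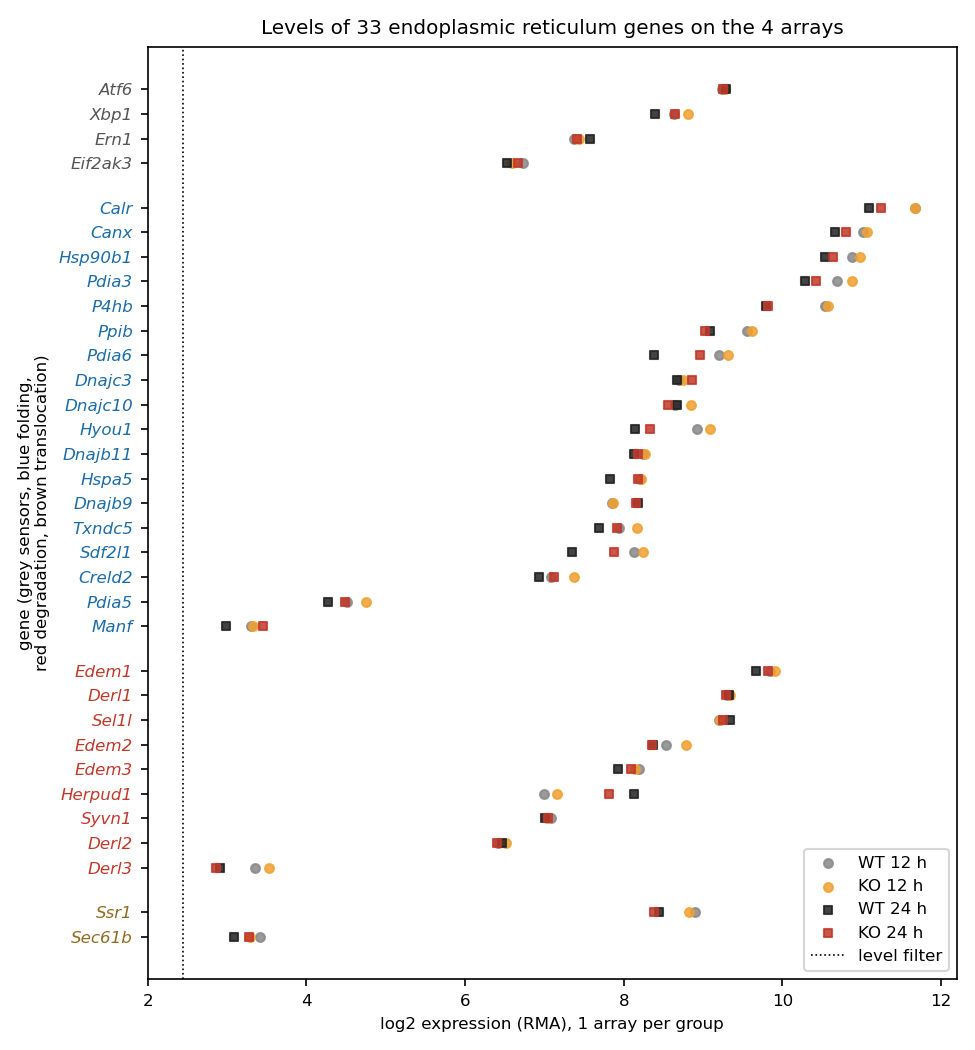
Log2 expression (x axis) of the 33 measured genes (y axis, by role) on each of the 4 arrays, 1 point per array, with the level filter as a dotted line. Calr, Canx and Hsp90b1 are the brightest genes; Derl3, Sec61b and Manf lie near the filter.

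Between 12 h and 24 h with fatty acids, 14 of the 18 folding genes were below 0 in both genotypes (lower at 24 h), whereas the degradation genes had medians nearer to 0. Of the 9 degradation genes, 4 were below 0 in both genotypes and 2, Herpud1 and Sel1l, were above 0 in both. In wild type, 25 of the 33 members were below 0 (median over the members -0.24), and in knockout 26 were (median -0.17). Over all genes kept the medians were -0.0050 and 0.0021. A difference below 0 in both genotypes was found for 21 of the 33 members and for 29.8% of all genes. A difference above 0 in both was found for 3 of the 33 and for 29.3% of all genes. The genotypes share no array in these comparisons.

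At least a 1.5-fold difference between 24 h and 12 h was seen for 5 members in wild type, or 15.2%, against 8.72% of all genes kept. Of these, 4 were lower (Pdia6, Sdf2l1, Hyou1 and P4hb; all genes 4.01%) and 1 was higher (Herpud1; all genes 4.71%). In knockout the count was also 5, against 6.31% of all genes. Here 4 were lower (Hyou1, P4hb, Derl3 and Ppib; all genes 3.25%) and Herpud1 was again higher (all genes 3.06%). With a rule of 1.3-fold the counts were 10 of the 33 members in wild type (20.4% of all genes) and 9 of the 33 in knockout (16.8%). With a rule of 2-fold they were 1, Herpud1, in wild type (1.95%) and 0 in knockout (1.13%). Past the 60th percentile of level, where the spread of the differences was narrower and 30 of the members lie, the shares of genes past 1.5-fold were 7.47% in wild type and 4.62% in knockout. Hyou1 and P4hb were lower by this size in both genotypes, as were 1.12% of all genes, and Herpud1 was higher in both, as were 1.33%.

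**Figure D2:**
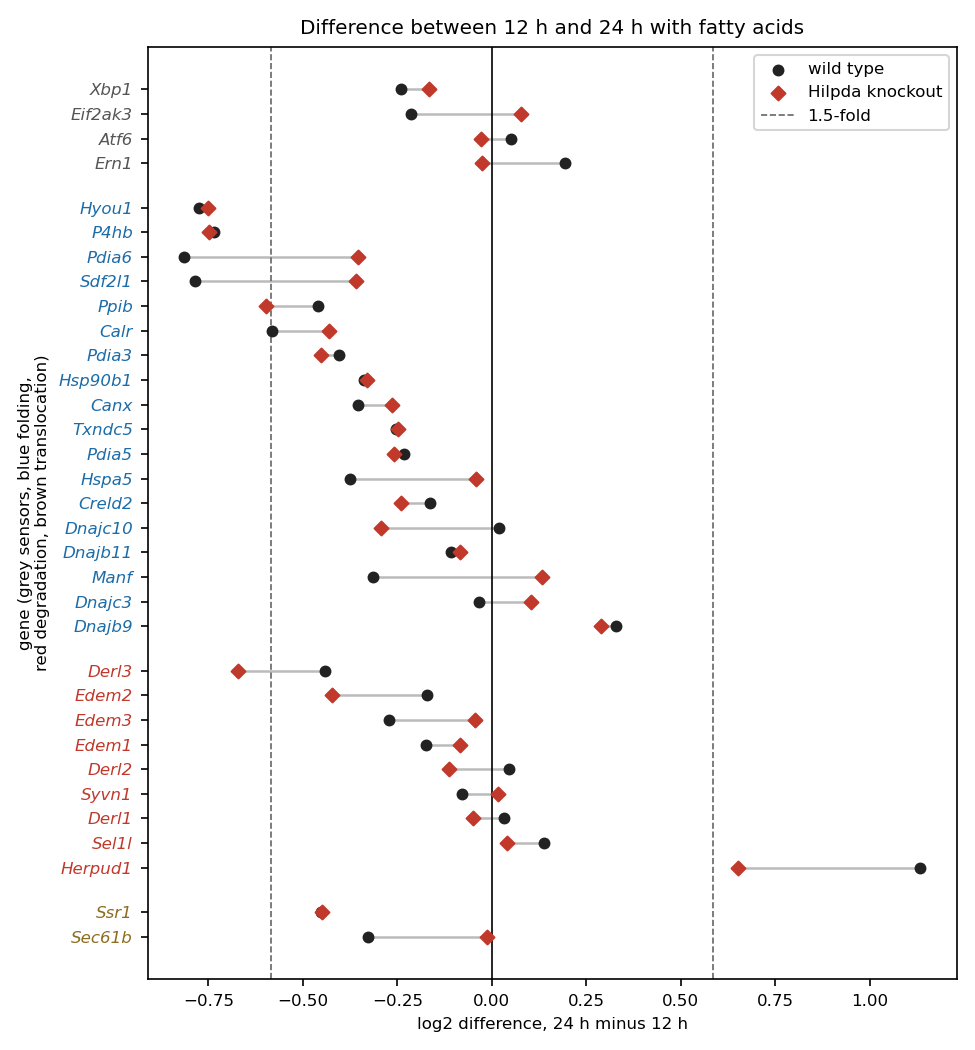
Log2 difference between 24 h and 12 h (x axis) for each gene (y axis, by role) in wild type (black circles) and knockout (red diamonds), with dashed lines at 1.5-fold. Most folding genes lie left of 0 in both genotypes, and Herpud1 lies right of the dashed line in both.

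Among the sensors, no difference between the times reached 1.5-fold. Xbp1, the transcription factor gene whose RNA IRE1 splices, had levels of 8.63 and 8.39 in WT and of 8.81 and 8.64 in KO at 12 h and 24 h, differences of -0.24 and -0.17. Ern1, which encodes IRE1, was at 0.19 in WT and -0.03 in KO. Eif2ak3, which encodes PERK, was at -0.21 and 0.08, and Atf6 at 0.05 and -0.03. Of the 4, only Xbp1 had the same sign in both genotypes.

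The genes of the HSP70 system of the endoplasmic reticulum differed among themselves. Hyou1, an HSP110-type exchange factor of BiP, was at 8.92 (WT) and 9.09 (KO) at 12 h and at 8.14 and 8.34 at 24 h. Both 24 h levels lay below both 12 h levels, and the differences of -0.77 and -0.75 correspond to 1.71-fold and 1.68-fold. Sdf2l1, a chaperone that works with the J protein ERdj3, was at 8.13 and 7.34 in WT and at 8.24 and 7.88 in KO, so the difference was -0.79 in WT and -0.36 in KO. Hspa5, which encodes BiP itself, was at 8.20 and 7.82 in WT but at 8.22 and 8.18 in KO, with the WT 24 h array apart from the other 3. The J proteins of BiP differed in sign and size. Dnajb11 (ERdj3) was at -0.11 and -0.09, Dnajc3 (p58IPK) at -0.03 and 0.10, and Dnajc10 (ERdj5, a reductase) at 0.02 and -0.29. Dnajb9 (ERdj4), which restrains IRE1 and aids degradation, was the single folding member that was higher in both genotypes: 7.85 and 8.18 in WT, 7.86 and 8.15 in KO, differences of 0.33 and 0.29. Manf, an HSP70-associated factor that is also secreted, was at -0.31 and 0.13, but its levels of 2.99 to 3.46 were near background.

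The HSP90-type chaperone and the lectin chaperones were lower at 24 h by 1.2-fold to 1.5-fold. Hsp90b1 (GRP94) was at 10.9 and 10.5 in WT and at 11.0 and 10.6 in KO, differences of -0.34 and -0.33. Calr was at 11.7 and 11.1 in WT and at 11.7 and 11.2 in KO, differences of -0.58 and -0.43. Canx, the membrane-bound lectin calnexin, was at -0.35 and -0.26. For each of these 3 genes the lower of the 12 h levels was above the higher of the 24 h levels.

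Apart from Dnajc10, the disulfide isomerases used and the prolyl isomerase Ppib were all below 0 in both genotypes. The probe set of Pdia4, left out of the counts, was at -0.28 in WT and -0.0066 in KO. P4hb, the classical protein disulfide isomerase and a subunit of collagen prolyl hydroxylase, was at 10.5 and 9.80 in WT and at 10.6 and 9.82 in KO, differences of -0.74 and -0.75. Pdia6 (P5), which also acts on the disulfides of IRE1, was at 9.20 and 8.38 in WT and at 9.32 and 8.96 in KO, a difference of -0.81 in WT and -0.35 in KO. For P4hb the genotypes were alike, while for Pdia6 the WT 24 h array was the low one. Pdia3 (ERp57), the partner of the lectin chaperones, was at -0.40 and -0.45. Txndc5 (ERp46) was at -0.25 in both genotypes, Pdia5 at -0.23 and -0.26, and Creld2, which has disulfide isomerase activity, at -0.16 and -0.24. Ppib, which encodes cyclophilin B, was at 9.55 and 9.09 in WT and at 9.62 and 9.02 in KO, so that the difference was -0.46 in WT and past 1.5-fold at -0.60 in KO; after a further quantile normalization the latter was -0.58, just short of 1.5-fold.

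Among the degradation members, Herpud1 stood farthest from the rest. Herpud1 encodes HERP, which organises the ubiquitin ligase complex of the membrane, and was at 7.0 and 8.13 in WT and at 7.16 and 7.81 in KO. Both 24 h levels were above both 12 h levels, by 2.19-fold in WT and 1.57-fold in KO. In wild type its difference was matched or exceeded by 102 of 13308 genes. The ligase itself was close to 0: Syvn1 (HRD1) was at -0.08 and 0.02, and its partner Sel1l at 0.14 and 0.04. Derl1 and Derl2, membrane proteins of the retrotranslocation channel, lay between -0.11 and 0.05, and a second probe set of Derl2, dimmer, was at -0.22 and 0.06. A brighter probe set, assigned to both Mis12 and Derl2, was not used and was at 0.12 and -0.05. Derl3, the third family member, was at -0.44 and -0.67 but dim, with levels from 2.86 to 3.53. The mannosidase-like proteins that mark misfolded glycoproteins were below 0 in both genotypes, most of all Edem2 in knockout. Edem1 was at -0.18 and -0.09 (a second, dimmer probe set at -0.07 and 0.02), Edem2 at -0.17 and -0.42, and Edem3 at -0.27 and -0.04.

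Of the translocation members, Ssr1, a subunit of the translocon-associated protein complex, was at 8.90 and 8.45 in WT and at 8.83 and 8.38 in KO, a difference of -0.45 in each. Its second probe set was at -0.55 and -0.27. Sec61b, a subunit of the translocation channel, was at -0.33 and -0.01 at levels near background. Its second probe set, below the level filter on average, was at -0.21 and 0.24 between the times and at 0.14 and 0.59 between the genotypes at 12 h and 24 h.

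**Figure D3:**
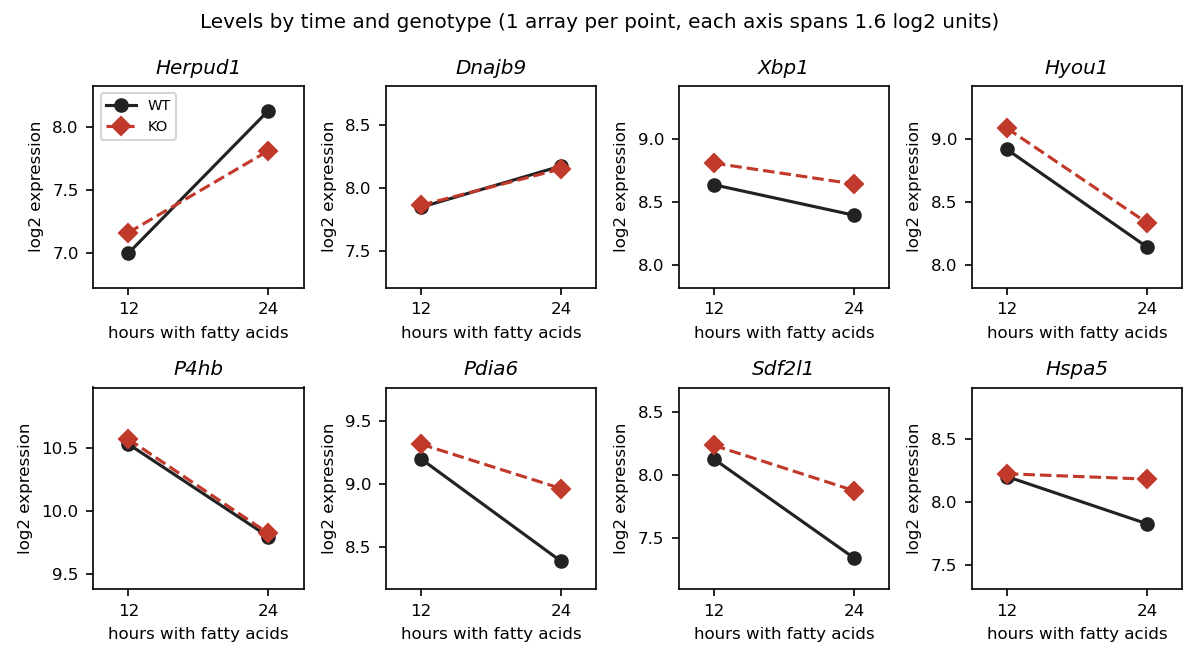
Log2 expression (y axes, each spanning 1.6 units) against hours with fatty acids (x axes) for 8 genes, wild type as black circles and knockout as red diamonds, 1 array per point. Hyou1 and P4hb run parallel in the genotypes, Pdia6, Sdf2l1 and Hspa5 are lowest on the WT 24 h array, and Herpud1 and Dnajb9 are higher at 24 h.

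Between the times, folding members had lower medians than degradation members in both genotypes. In wild type the folding median was -0.35, with 16 of 18 below 0, and the degradation median -0.08, with 5 of 9 below 0, a gap of -0.27; the degradation mean, which takes in Herpud1, was 0.02. In knockout the medians were -0.28 (15 of 18 below 0) and -0.05 (6 of 9 below 0), a gap of -0.23. The genes are not replicates and the gap was not tested. With Dnajb9 and Dnajc10 counted among the degradation members instead, since their proteins serve that branch too, the gap in wild type was -0.38. In wild type these genes were at 0.33 and 0.02, and all other folding members were below 0. Moving them could therefore not have narrowed that gap. The WT 24 h array was the lowest of the 4 for 15 of the 18 folding members and for 3 of the 9 degradation members, against 30.2% of all genes kept. The KO 12 h array was the highest for 14 folding and 5 degradation members, against 23.8% of all genes. The summed stromal and macrophage markers ran the other way, highest on the WT 24 h array and lowest on the KO 12 h array. The macrophage sums were 14.5 on the former, 14.2 on the latter and 14.3 on each of the others. The part of either list in these differences was not tested.

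Folding members with and without ERSE, here an exact match in the window searched, overlapped in their time differences. Copies with a changed letter were not searched. The 7 folding members with a match had a median time difference of -0.35 in wild type, from -0.81 for Pdia6 to -0.03 for Dnajc3. The 9 with a listed promoter and no match had a median of -0.25, from -0.79 for Sdf2l1 to 0.33 for Dnajb9. In knockout the medians were -0.26 and -0.29. Pdia6 and Dnajc3, both with the element, lay at or near opposite ends of the order in wild type. Herpud1 and Dnajb11 share ERSE-II, at -52 to -42 from the transcription start in Herpud1 but after it, at 7 to 17, in Dnajb11. Their time differences in wild type were 1.13 and -0.11. For knockout minus wild type at 24 h, the 7 folding members with ERSE had a median of 0.19, from 0.10 to 0.58. The 9 without it had a median of 0.05, from -0.11 to 0.54. At 12 h the medians were 0.05 with ERSE and 0.11 without. The split by ERSE was not tested.

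Between the genotypes, none of the 33 members differed by 1.5-fold at 12 h or at 24 h, against 2.9% and 6.49% of all genes kept. Past the 60th percentile of level, where 30 of the members lie, the shares of genes were 1.03% and 4.28%. Folding members were mostly above 0 at these smaller sizes: 17 of 18 at 12 h, with a median of 0.08, and 15 of 18 at 24 h, with a median of 0.17. The probe set of Pdia4, left out of these counts, was at -0.06 at 12 h and 0.22 at 24 h. The degradation members had medians of 0.06 (7 of 9 above 0) and -0.04 (3 of 9 above 0). The medians over all genes were 0.0023 and 0.0055. A difference above 0 at both times was found for 16 of the 33 members, 14 of them folding members, and for 27.5% of all genes. Of the 33, 1 member, Ssr1, was below 0 at both times, against 26% of all genes. The gap between folding and degradation medians was 0.02 at 12 h and 0.21 at 24 h, and neither was tested. The 12 h gap ranged from 0.02 to 0.05 over the alternative settings, the highest with the mean over the probe sets of each gene.

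**Figure D4:**
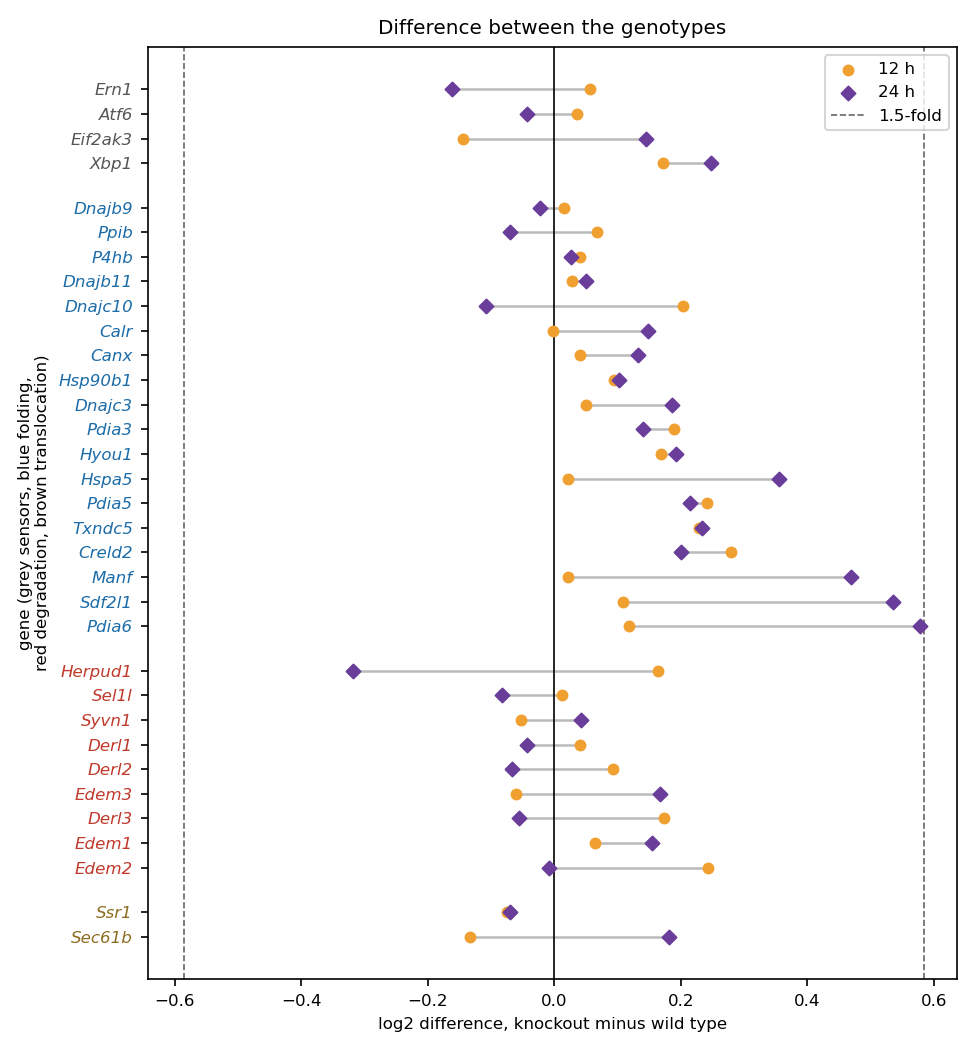
Log2 difference between knockout and wild type (x axis) for each gene (y axis, by role) at 12 h (orange circles) and 24 h (purple diamonds), with dashed lines at 1.5-fold. No gene passes the dashed lines; Pdia6 and Sdf2l1 are farthest to the right at 24 h, and Herpud1 is farthest to the left.

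At 12 h the members farthest from 0 were Creld2 at 0.28, Edem2 at 0.24, Pdia5 at 0.24 and Txndc5 at 0.23. Creld2 was at 7.09 in WT and 7.37 in KO, and its difference was 0.20 at 24 h. Txndc5 and Pdia5 were likewise at 0.23 and 0.22 at 24 h, whereas Edem2 was at -0.01. Xbp1 was at 0.17 and 0.25, and Hyou1 at 0.17 and 0.19. All these values lie inside the central 95% of all genes, which ran from -0.50 to 0.49 at 12 h and from -0.66 to 0.62 at 24 h.

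At 24 h the largest genotype differences were those of Pdia6 at 0.58 (1.49-fold), Sdf2l1 at 0.54 (1.45-fold), Manf at 0.47 and Hspa5 at 0.35. Counting all genes kept, 404 were as high as Pdia6 or higher, and after a further quantile normalization it was at 0.60 and past 1.5-fold. With a rule of 1.3-fold, 3 of the 33 members (Pdia6, Sdf2l1 and Manf) were counted, against 17.1% of all genes. At 12 h the same 4 genes were at 0.12, 0.11, 0.02 and 0.02. The time difference in knockout minus that in wild type was 0.46 for Pdia6, 0.43 for Sdf2l1, 0.45 for Manf and 0.33 for Hspa5. Over all genes this quantity had a central 95% from -0.78 to 0.74, and 1106 genes were as high as Pdia6. Herpud1 lay on the other side, at 0.16 at 12 h and -0.32 at 24 h. These comparisons share the WT 24 h array with the time difference in wild type, so the low levels of Pdia6, Sdf2l1 and Hspa5 on that array enter both. Likewise, the genotype difference at 12 h and the time difference in knockout share the KO 12 h array. That array was the highest for 14 of the 18 folding members, so these results are not separate observations.

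The only test across genes was a limma fit of genotype and time as added terms over all 4 arrays, with 1 residual degree of freedom and Benjamini-Hochberg adjustment over 13308 genes. The residual comes from the time difference in one genotype minus that in the other, not from replicates. Each standard error (SE) is drawn toward a prior variance over all genes, with 3.3 prior against 1 residual degree of freedom. For time it was 0.11 for Txndc5, Ssr1 and Hsp90b1 as for Hyou1 and P4hb. It is therefore no spread measured for each gene. For genotype, 0 members and 0 genes had an adjusted p under 0.05, and 0 members but 6.52% of all genes had an unadjusted p under 0.05. For time, 0 members and 0 genes passed after adjustment, and 13 of the 33 members, against 13.2% of all genes, had an unadjusted p under 0.05. By limma the time effect of Hyou1 was -0.76 ± 0.11 (SE; adjusted p = 0.163), that of P4hb -0.74 ± 0.11 (adjusted p = 0.166) and that of Herpud1 0.89 ± 0.16 (adjusted p = 0.191).

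The outcome for time changed with how limma took its prior variance. With a prior variance that follows the level, 10 of the 33 members passed, against 4.06% of all genes. Of these, 9 were lower at 24 h (P4hb, Hyou1, Calr, Ppib, Pdia3, Ssr1, Pdia6, Sdf2l1 and Hsp90b1) and 1, Herpud1, was higher. The limma adjusted p in that setting ran from 0.00233 for P4hb to 0.0368 for Hsp90b1. With genes under the 60th percentile of level left out, 2 of 30 members passed, Hyou1 and P4hb, against 1.65% of genes. For genotype 0 members passed in either setting. Unadjusted, 6 of the 33 members passed with the trend, against 7.33% of all genes, and 0 past the 60th percentile, against 7.52%.

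Among further genes of the same compartment, those of translocation had the lowest medians between the times, while further degradation and signalling genes lay near the median of all genes. Of 30 further genes of translocation and N-glycosylation, 27 were below 0 in wild type (median -0.26) and 23 in knockout (median -0.22). Rpn1, an oligosaccharyltransferase subunit, was the single one past 1.5-fold, at -0.73 and -0.62. Lower by this size were 4.01% of all genes in wild type and 3.25% in knockout. Of 27 further folding genes, 18 and 19 were below 0 with medians of -0.12 and -0.14. Of these genes, 2 in wild type (all genes 4.01%) and 1 in knockout (all genes 3.25%) were lower by 1.5-fold. Tmx4, a membrane-bound thioredoxin-like protein, was at -0.80 and -0.85, and Fkbp2, a prolyl isomerase, at -0.66 and -0.39. Fkbp14, a prolyl isomerase of collagen folding, differed instead between the genotypes, at -0.60 at 24 h, but was dim, with levels from 3.33 to 3.93. Between the times, 12 and 13 of the 21 further degradation genes were below 0, with medians of -0.02 and -0.06 (mean in knockout 0.0092). Ngly1, the cytosolic N-glycanase, was higher in knockout at 24 h than at 12 h, at 0.60. The 16 further signalling genes had medians of -0.01 and -0.02. Creb3l1, an ATF6-like membrane factor, was lower in KO at 24 h, at -0.86, and in KO between the times, at -0.59, and Wfs1, a membrane protein of the reticulum, was higher at 24 h in wild type, at 0.61.

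Chaperones of other compartments lay nearer to 0 between the times. The 27 cytosolic chaperone genes had medians of -0.07 in wild type and -0.0059 in knockout, and the 15 mitochondrial ones of 0.0013 (mean -0.03) and 0.10. Ptges3, the HSP90 cochaperone p23, was the cytosolic gene past 1.5-fold, at -0.59 between the times in wild type and -0.71 between the genotypes at 12 h. It was dim, with a mean level of 3.75. Of all genes, 4.01% were lower by this size in wild type, and 2.9% passed it in either direction between the genotypes at 12 h. Mitochondrial chaperones were also higher in knockout at 24 h, with a median of 0.21 and 12 of 15 above 0, so a median above 0 in that comparison was not seen in the endoplasmic reticulum alone. The 34 proteasome subunits kept, which receive the degraded proteins, had medians of -0.13 and -0.10 between the times. Psmb5 was past 1.5-fold in wild type at -0.59, against 4.01% of all genes lower by that size. The 17 genes of the ATF4 and CHOP branch had medians of 0.04 (mean -0.01) and 0.0050. Higher by 1.5-fold were 2 of them in wild type (all genes 4.71%) and 1 in knockout (all genes 3.06%). Sesn2, a stress-induced inhibitor of mTORC1 signalling, was at 0.83 and 0.55, and Ddit4, which also restrains mTORC1 and is named here after its values were seen, was at 0.69 and 0.60. Ddit4 was dim, with a mean level of 3.95. Ddit3, which encodes CHOP, was at -0.39 and 0.0050, and Atf3 at -0.58 and 0.04, neither past 1.5-fold. Between the genotypes at 24 h this list had 2 genes higher and 1 lower in KO by 1.5-fold, against 6.49% of all genes in either direction. Ddit3 was at 0.74 and Atf3 at 0.73, whereas Ddit4 was at -0.60 and Sesn2 at -0.55. Differences between these lists were not tested.

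**Figure D5:**
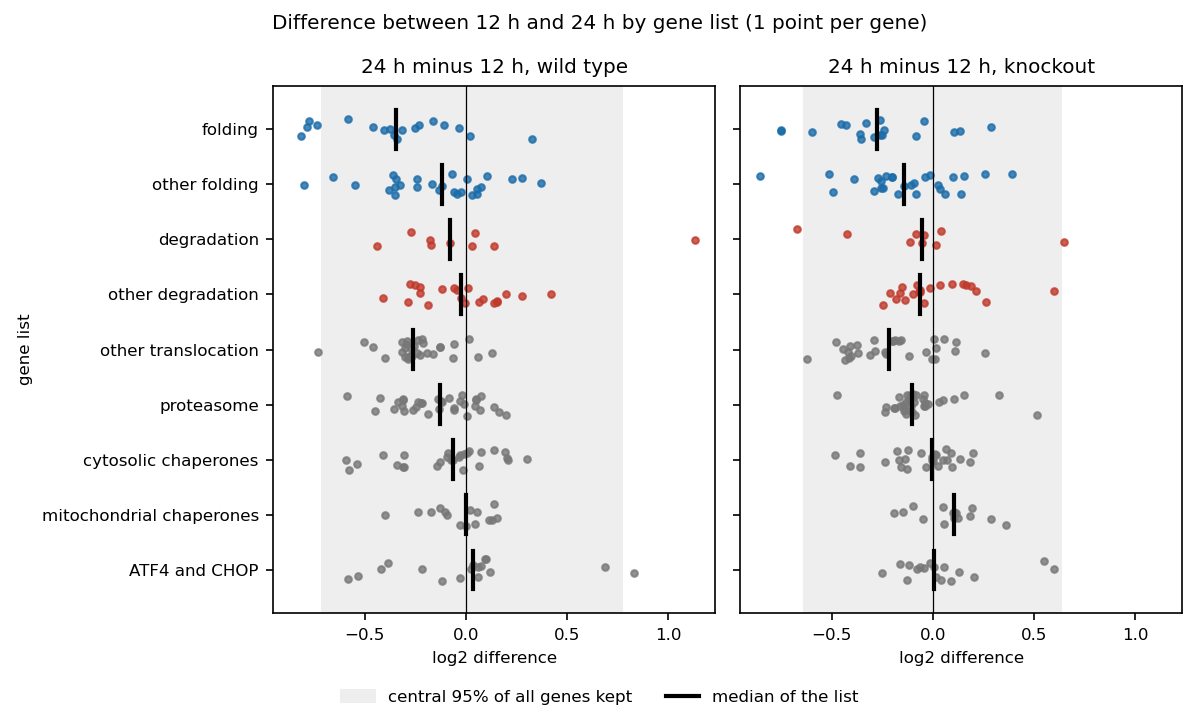
Log2 difference between 24 h and 12 h (x axes) for each gene (points) of the folding and degradation members and of 7 further lists (y axis), in wild type (left) and knockout (right), with the list median as a black bar and the central 95% of all genes kept in grey. The folding median lies farthest left, at -0.35 and -0.28, followed by the further translocation genes at -0.26 and -0.22.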

How the data were processed

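Log2 expression per probe set on an Affymetrix whole-transcript array was deposited for 4 pools, 1 per group, and was made by the authors with RMA (version not given), per the submitters' processing notes. Quantile normalization, a step of RMA, hides a shift common to all transcripts. The values reached 13.2, which fits a log2 scale; no source states the scale. The number of arrays limits the precision. Of 41345 probe sets, 23521 had 1 gene symbol in the platform annotation, 1814 several and 16010 none; only the first were used. For the 1082 genes with more than 1 probe set, the one with the highest mean was taken, and genes at or above the 40th percentile of mean level (2.44) were kept. Every column was matched to its sample.

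A difference is that of 2 log2 values, and a gene is counted at 1.5-fold or more. The test across genes was limma (version 3.58.1, R 4.3.3) with genotype and time as added terms. Steps were tested on simulated data. The members, the lists and the alternatives were chosen with earlier results of these data known. Named genes were all members, up to 3 genes past 1.5-fold from each further list, Hilpda and cell type markers. Gene IDs of all 34 members matched the RefSeq table of GRCm38.p6. Alternatives were no level filter, the 60th percentile, the mean over probe sets, quantile normalization, median centring, a loess on level (span 0.3), other fold rules, another assignment of Dnajb9 and Dnajc10, and a limma prior variance with a trend.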

Additional observations from a re-analysis of the deposited data

Results flagged for a closer look

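For 5 members the same comparison gave differences of opposite sign, each over 0.1 in size, in the 2 pairs of arrays that make it; with 1 array per group these differences between groups were not tested. The genotype difference of Herpud1 was 0.16 at 12 h and -0.32 at 24 h, a change of -0.48. That of Dnajc10 was 0.20 and -0.11, a change of -0.31. For Eif2ak3 it was -0.14 and 0.14, a change of 0.29. For Sec61b, near background, it was -0.13 and 0.18, a change of 0.32. The time difference of Manf, also near background, was -0.31 in wild type and 0.13 in knockout, a change of 0.45. All 5 changes lie inside the central 95% of all genes, from -0.78 to 0.74.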

How the results depend on the processing

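The gaps between folding and degradation medians kept their sign under each alternative run, and the 12 h gap between the genotypes, 0.0166, ran from 0.0153 to 0.0525. With a fold rule of 1.3 the counts were 3 at 24 h between the genotypes, 10 between the times in wild type and 9 in knockout, and with a rule of 2 they were 1 in wild type (Herpud1, higher, with none lower) and 0 in knockout; in the other settings more members were lower than higher at 24 h. Quantile normalization moved Pdia6 past 1.5-fold at 24 h, which made that count 1, and Ppib in knockout to -0.58, below it; the cause was not tested. Counting Dnajb9 and Dnajc10 as degradation members moved the gap in wild type to -0.38, a move that could not have narrowed it. The limma count for time was 0 as fitted, 2 past the 60th percentile of level and 10 with a trend on level. Past the 60th percentile both the number of genes tested and the prior variance differed. The cause was not tested in either setting. Leaving out 1 array leaves no residual degree of freedom. No paired analysis was possible because each group has 1 array. Signal near background limits Derl3, Manf and Sec61b, and Fkbp14, Ptges3 and Ddit4 of the further lists were also dim.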
